A study of Mus musculus with 16 samples.

Results

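Glucose uptake, glycolysis and the fate of pyruvate were followed in the mouse left ventricle through 10 genes: Slc2a1, Slc2a4, Hk1, Hk2, Pfkm, Pfkfb2, Ldha, Ldhb, Pdk2 and Pdk4. Every probe carrying 1 of these symbols in the probe table of the series was taken, whatever its values. Of the 10 genes, 9 had a probe, with 3 probes for Pfkm, 2 for Pfkfb2 and 1 for each of the others, 12 of the 25697 probes of the array. Ldhb was not analysed here, since the probe table pairs no probe with that symbol. A probe counted as detected where its detection p-value was under 0.01 on at least 4 of the 16 arrays, and 12 of the 12 probes met this. Of these, 11 were detected on 16 arrays, and the dimmer Pfkfb2 probe (ILMN_2687339) on 6: 1 control, 2 TRAF2LC, 2 IkBaDN and 1 double transgenic array.

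The arrays were single-colour Illumina mouse arrays, 1 per left ventricle, from 16 male mice of unstated age. The 4 groups of 4 hearts were littermate controls, called WT in the design of the series, Myh6-TRAF2LC mice (TRAF2LC), Myh6-IκBαΔN mice (IkBaDN) and mice carrying both (double transgenic). In TRAF2LC hearts the Myh6 promoter, which is active in cardiomyocytes, drives extra TRAF2, an adapter of tumour necrosis factor receptors. In IkBaDN hearts the same promoter drives an altered IkBa, the protein that keeps NF-kB dimers in the cytoplasm. RNA of the tissue came from all its cells, not only from the cardiomyocytes in which the promoter is active. The title of the series concerns cardiac protection by TRAF2 through non-canonical NF-kB signalling, and no metabolic intervention is named in the labels.

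A cardiomyocyte takes up glucose through the transporters GLUT1 and GLUT4 and traps it as glucose 6-phosphate by hexokinase. Phosphofructokinase then commits the sugar to glycolysis, and its activator fructose 2,6-bisphosphate is made and removed by the bifunctional enzyme that Pfkfb2 encodes in heart. Pyruvate is either exchanged with lactate by lactate dehydrogenase or oxidised by pyruvate dehydrogenase, which the pyruvate dehydrogenase kinases switch off. The adult heart draws most of its energy from fatty acids, and Pdk4 is known as a gene that fasting and fatty acids induce through PPAR receptors.

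No member passed the test in the 5 comparisons between genotypes or in their interaction; TRAF2LC and IkBaDN hearts were not compared directly. Each comparison was read from 1 limma fit over the 9449 detected probes of all 16 arrays, with p-values adjusted by Benjamini-Hochberg over these probes and a threshold of 0.05. In TRAF2LC against control hearts 0 of 12 member probes were called, against 1.04% of all probes tested. In IkBaDN against control hearts 0 of 12 were called, against 0.444% of all probes, and in double transgenic against control hearts 0 of 12, against 0.91%. Between double transgenic and TRAF2LC hearts the count was 0 of 12, against 2.97% of all probes, and between double transgenic and IkBaDN hearts 0 of 12, against 0.0106%. The interaction, which is the effect of 1 transgene with the other present minus its effect without it, called 0 of 12 and 0.0212% of all probes. At these background shares a list of 12 probes would hold less than 1 called probe on average in each comparison, so these counts of 0 do not set the members apart.

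The intervals describe the precision of the main fit under its own normalization. Alternative settings moved some estimates, such as that of Hk2 in IkBaDN hearts, beyond their intervals. Over the 12 probes and the 3 comparisons with control, the estimated changes ran from 0.756-fold to 1.17-fold. The 36 confidence intervals (95%, not adjusted for their number) ran from 0.563-fold to 1.83-fold at their ends, and 2 of the 36 left out no change. The probes with an unadjusted p under 0.05 were 1 of 12 in TRAF2LC against control (Slc2a4), 0 in IkBaDN against control, 1 in double transgenic against control (Pfkm) and 1 in the interaction (Slc2a4). The same share of all probes was 10.6%, 7.65%, 10.7% and 6.28% in that order. In double transgenic against TRAF2LC and against IkBaDN hearts it was 0 of 12, with 15.6% and 5.73% of all probes.

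**Figure D1:**
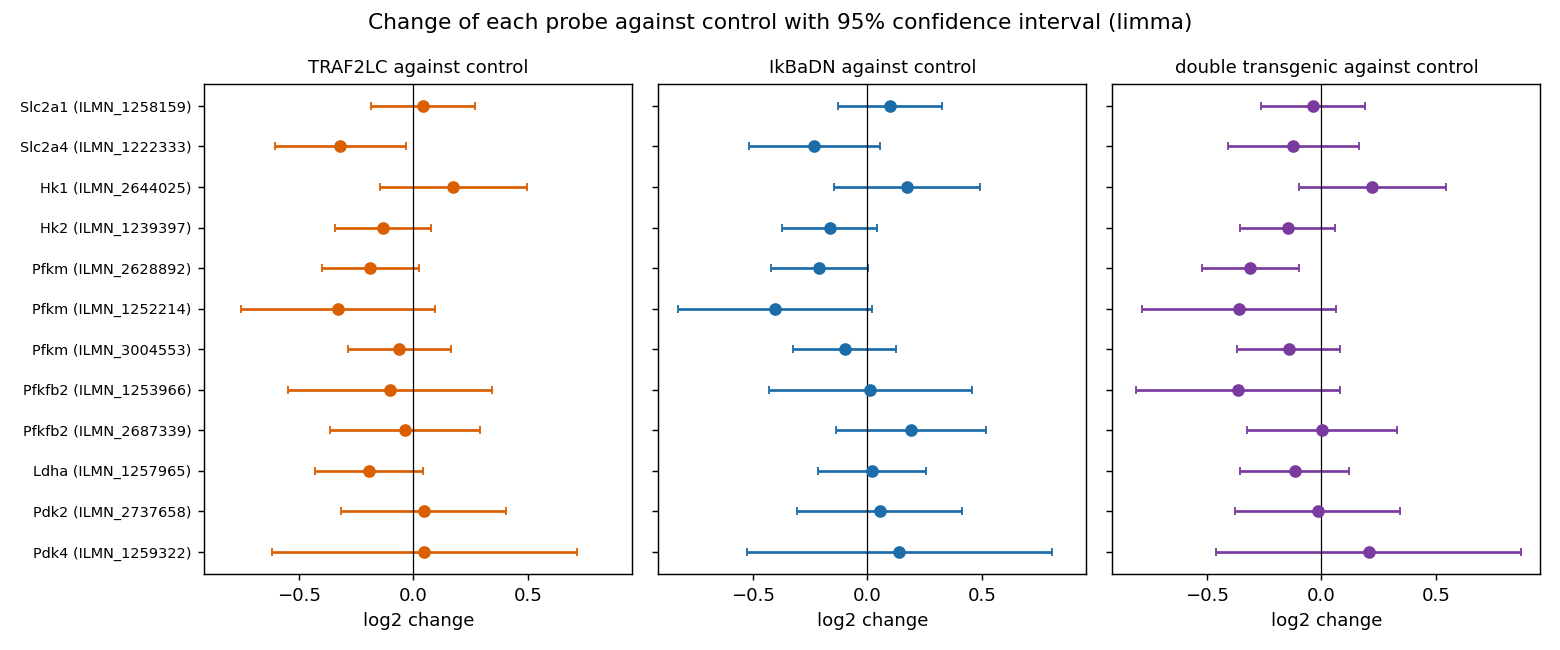
Log2 change of each of the 12 probes (rows) against control in TRAF2LC, IkBaDN and double transgenic hearts (panels), with points for the limma estimate and bars for its 95% confidence interval. The intervals of Slc2a4 in TRAF2LC hearts and of Pfkm probe ILMN_2628892 in double transgenic hearts leave out 0, and 0 of the 36 changes passed the adjusted threshold.

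The depth of the arrays and markers of the cells in the tissue were read beside the members. The arrays had mean deposited signals of 129 (IkBaDN replicate 2) to 375, and between 7948 and 9397 probes were detected. All 8 ventricular cardiomyocyte markers with a probe were detected, with a summed level of 16.97 to 17.13 on the log2 scale over all arrays. Of 5 skeletal muscle markers only Acta1, which heart also expresses, was detected, and of 5 adipocyte markers 2 were. TRAF2LC replicate 4 stood apart: its 7 detected macrophage markers (of 9, with Adgre1 and Cd163 not detected) lay a median of 1.0 log2 above the control mean, against 0.12 to 0.32 on the other TRAF2LC arrays. The summed macrophage level was 11.15 to 11.51 in control, 11.47 to 12.28 in TRAF2LC, 11.23 to 11.64 in IkBaDN and 11.25 to 11.47 in double transgenic hearts. Single markers of other cells passed the test: Cx3cr1 of macrophages rose in TRAF2LC against control hearts (0.85, adjusted p = 0.0255), and Acta2 of smooth muscle rose in double transgenic against control hearts (1.01, adjusted p = 0.0129). The summed level of the 3 smooth muscle markers detected (of 4) was 12.96 to 13.56 in control, 13.06 to 13.48 in TRAF2LC, 13.47 to 14.41 in IkBaDN and 14.13 to 14.37 in double transgenic hearts. The other 2 detected had a lower mean than control in double transgenic hearts, with a list median of -0.02. A sum of unlogged intensities weighs bright markers most, so it is not a rise of the whole list. Myl1, which had been placed in the atrial list, fell in IkBaDN (-1.58, adjusted p = 4.31e-05) and double transgenic hearts (-1.33, adjusted p = 0.000257) against control. It was the only 1 of the 5 genes of that list called there, and whether it marks atrial cells in these hearts was not tested. All 5 had a lower mean than control in both genotypes, with list medians of -0.31 and -0.21. The summed atrial level was 16.30 to 16.35 in control and 16.10 to 16.39 in TRAF2LC hearts. In IkBaDN hearts it was 15.93 to 16.22, and in double transgenic hearts 15.95 to 16.30. The part of these shifts in the members' values was not tested. In such bulk tissue fewer cells of a type and less RNA per cell cannot be told apart.

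Glucose entry was read from Slc2a4, which encodes the insulin-responsive transporter GLUT4, and Slc2a1, which encodes GLUT1. The 4 control hearts had Slc2a4 log2 intensities of 9.85, 9.91, 9.86 and 9.78. TRAF2LC hearts had 9.57, 9.41, 9.89 and 9.25, IkBaDN hearts 9.63, 9.57, 9.45 and 9.82, and double transgenic hearts 9.999, 9.68, 9.66 and 9.57. The control hearts lay close together, and 3 of the 4 TRAF2LC hearts were below all of them, while the remaining one, replicate 3, stood within their range.

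Slc2a4 was 0.802-fold in TRAF2LC against control, a log2 change of -0.32 ± 0.14 (limma standard error; interval -0.60 to -0.03) with an adjusted p of 0.406. The lowest Slc2a4 value, 9.25, was that of TRAF2LC replicate 4, the array with the high macrophage markers, and without that array the change was -0.23 (adjusted p = 0.862). In IkBaDN hearts the change was -0.23 ± 0.14 (adjusted p = 0.761) and in double transgenic hearts -0.12 ± 0.14 (adjusted p = 0.815). By mean level the order was control (9.85 ± 0.05, SD, n = 4), double transgenic (9.73 ± 0.19), IkBaDN (9.62 ± 0.15) and TRAF2LC (9.53 ± 0.27), and neighbours in this order overlapped in their values.

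The departure of double transgenic hearts from the sum of both single-transgene differences did not pass for Slc2a4 either. This interaction was 0.43 ± 0.19 on the log2 scale, with an unadjusted p of 0.0396 and an adjusted p of 0.777. Slc2a1 means lay between 7.95 ± 0.04 in double transgenic and 8.08 ± 0.12 in IkBaDN hearts (SD, n = 4), with 7.98 ± 0.09 in control and 8.02 ± 0.19 in TRAF2LC. Its 16 values ran from 7.88 to 8.29, the highest being TRAF2LC replicate 1, and all 4 genotypes overlapped. Adjusted p-values for Slc2a1 in the comparisons with control were between 0.919 and 0.946.

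Hexokinase was measured for Hk2, the main insulin-regulated form in adult heart muscle, and for Hk1, the more widely expressed form. Hk2 read 13.45, 13.37, 13.39 and 13.55 in control and 13.27, 13.32, 13.31 and 13.33 in TRAF2LC hearts. The IkBaDN values were 13.22, 13.46, 13.30 and 13.11, and the double transgenic values 13.37, 13.32, 13.34 and 13.14. Every TRAF2LC heart was below every control heart, by a narrow margin, whereas the other 2 genotypes overlapped with control.

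The Hk2 difference was small on the array scale. It was 0.912-fold in TRAF2LC hearts (log2 -0.13 ± 0.10, adjusted p = 0.709), 0.892-fold in IkBaDN hearts (adjusted p = 0.765) and 0.903-fold in double transgenic hearts (adjusted p = 0.649). Hk1 gave mean log2 intensities of 5.76 ± 0.09 for control, 5.94 ± 0.19 for TRAF2LC, 5.94 ± 0.33 for IkBaDN and 5.99 ± 0.18 for the double transgenic group (SD, n = 4). The Hk1 values lay near the detection limits of the arrays, which were 5.40 to 5.81. The highest Hk1 value, 6.30, came from IkBaDN replicate 2, the array with the lowest signal and the highest detection limit, and without that array the IkBaDN change was 0.05 (adjusted p = 0.999). The Hk1 changes against control were 0.18, 0.17 and 0.22 ± 0.15 in TRAF2LC, IkBaDN and double transgenic hearts, with adjusted p-values of 0.757, 0.869 and 0.653.

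Pfkm encodes the muscle form of phosphofructokinase. Its brightest probe (ILMN_2628892) had the smallest p-value of all members in double transgenic against control hearts. Control hearts read 13.30, 13.39, 13.23 and 13.30 on it, TRAF2LC hearts 13.19, 13.08, 13.02 and 13.19, IkBaDN hearts 13.27, 12.98, 12.94 and 13.20, and double transgenic hearts 13.08, 12.94, 12.91 and 13.06. Every TRAF2LC and every double transgenic heart was below every control heart, and IkBaDN replicate 1 alone of its genotype reached the control range.

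The change of this probe was 0.807-fold in double transgenic hearts, log2 -0.31 ± 0.10 (interval -0.52 to -0.10), with an unadjusted p of 0.00679 and an adjusted p of 0.225. It was 0.878-fold in TRAF2LC (adjusted p = 0.538) and 0.864-fold in IkBaDN hearts (adjusted p = 0.649). Together with Hk2, this made 2 of 12 member probes below control with no overlap in TRAF2LC hearts, against 3.11% of all probes tested, and 1 of 12 in double transgenic hearts, against 3.79%. In IkBaDN hearts it was 0 of 12, against 2.32%. The 3 comparisons share the control hearts.

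The other 2 Pfkm probes showed how far readings of 1 gene can part. The mean of ILMN_1252214 was 10.41 ± 0.31 for control, 10.08 ± 0.29 for TRAF2LC, 10.004 ± 0.27 for IkBaDN and 10.05 ± 0.36 for double transgenic hearts (SD, n = 4). The mean of ILMN_3004553 was 12.92 ± 0.09, 12.86 ± 0.18, 12.82 ± 0.07 and 12.77 ± 0.13 in the same order. All 3 probes had their highest mean in control hearts, except that ILMN_3004553 in TRAF2LC hearts was 0.01 above control both under median scaling and without TRAF2LC replicate 1. Within genotypes the probes did not move together: the brightest had a correlation of 0.29 with ILMN_1252214 and -0.48 with ILMN_3004553 over the 16 arrays, as a description. Which transcripts these probes match was not analysed here.

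**Figure D2:**
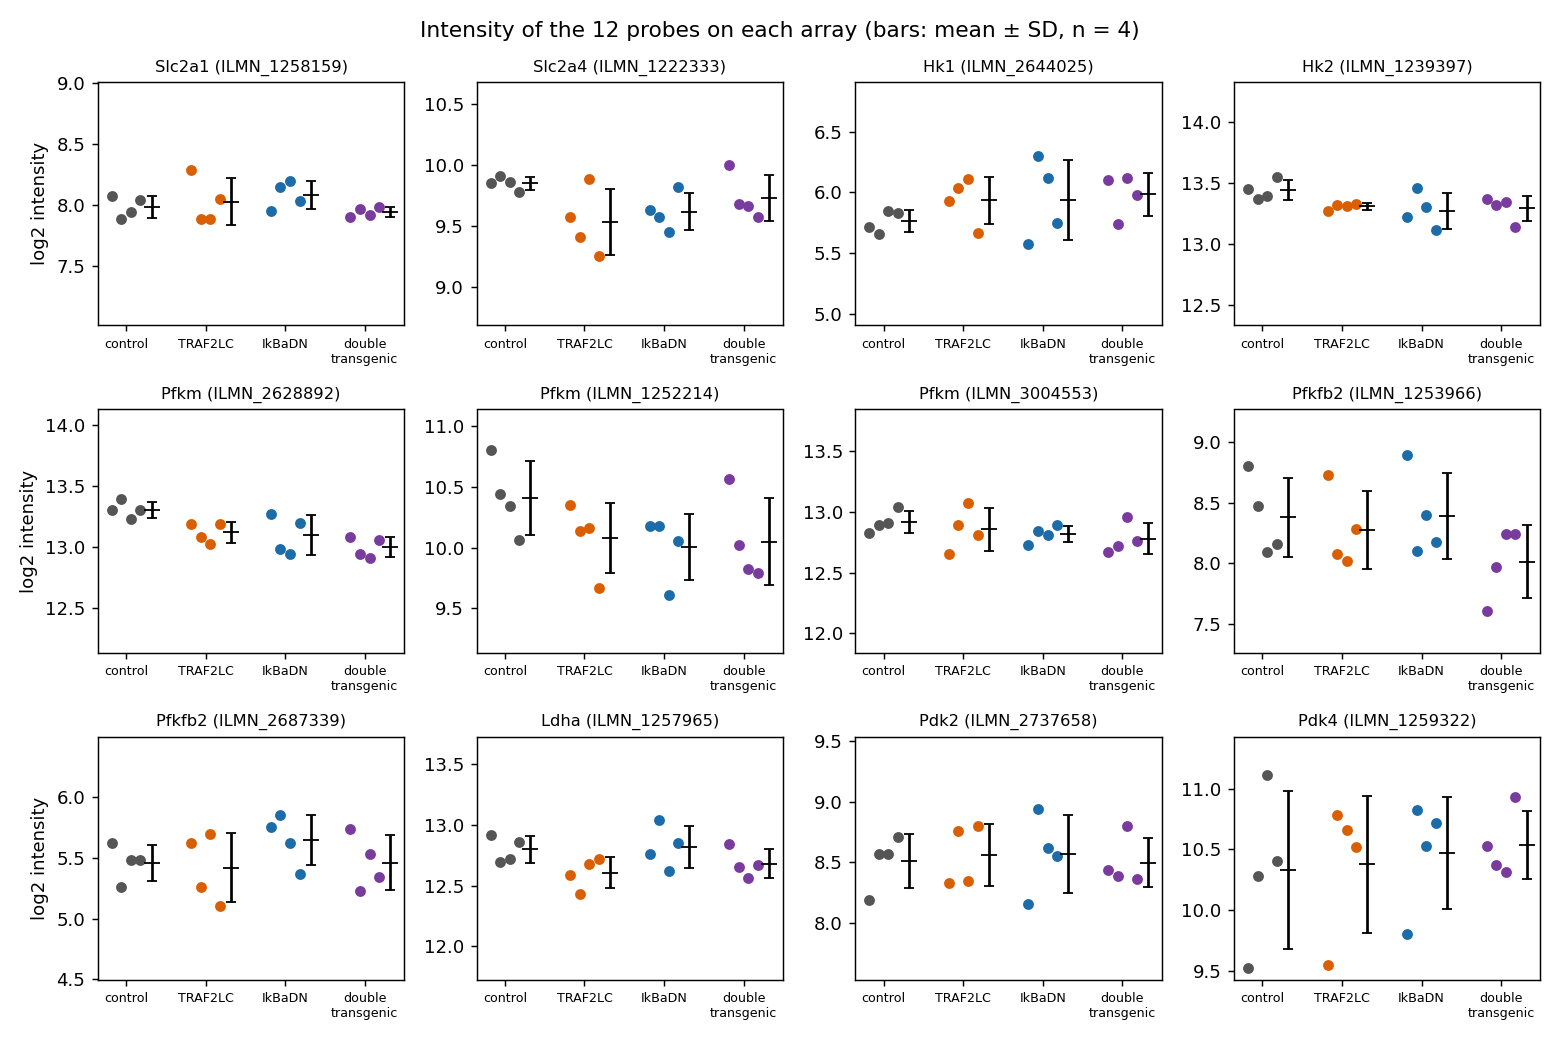
Log2 intensity of the 12 probes (panels) on each of the 16 arrays, grouped by genotype on the horizontal axis, with small points for single hearts and mean ± SD (n = 4) beside them. Every panel spans the same width on the log2 scale, so that Pdk4 is seen to spread most within genotypes and Hk2 and the brightest Pfkm probe least.

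Pfkfb2 and Pdk4 were the members that differed most between hearts, and the 250 bases upstream of their starts are shown for that reason, from RefSeq on GRCm38.p6. Capitals mark matches to a loose form of the NF-kB site (GGG and CC with any 5 bases between them) and to ACGTG, the core bound by hypoxia-inducible factors, of which the E-box CACGTG is a palindromic extension. Both strands were searched, and matches that overlap run into 1 capital stretch. The Pdk4 window is chr6:5496279-5496528 and that of Pfkfb2 chr1:130715822-130716071, both on the minus strand and written 5′ to 3′, the latter being 1 of 3 starts listed for the gene.
Pdk4: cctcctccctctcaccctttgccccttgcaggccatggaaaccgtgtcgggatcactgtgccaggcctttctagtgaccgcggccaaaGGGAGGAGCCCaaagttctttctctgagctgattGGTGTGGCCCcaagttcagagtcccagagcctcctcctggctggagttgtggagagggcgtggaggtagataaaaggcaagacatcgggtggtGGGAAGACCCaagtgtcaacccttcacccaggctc
Pfkfb2: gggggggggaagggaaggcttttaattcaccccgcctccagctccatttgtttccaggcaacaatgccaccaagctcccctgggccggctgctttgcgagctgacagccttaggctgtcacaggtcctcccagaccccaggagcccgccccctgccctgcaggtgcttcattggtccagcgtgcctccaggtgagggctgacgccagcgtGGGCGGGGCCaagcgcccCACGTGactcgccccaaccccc
The Pdk4 window held 5 matches to the NF-kB form in 3 stretches and 0 to ACGTG. The Pfkfb2 window held 1 match to the NF-kB form and 1 CACGTG, which counts on both strands as 2 matches to ACGTG. Of 32851 RefSeq windows of this length, 45.8% held the NF-kB form at least once, 16.6% ACGTG and 6.02% CACGTG. Holding the NF-kB form is thus common, while the share of windows with as many matches as Pdk4 was not counted. Such matches show no binding.

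Pfkfb2 showed no genotype difference beyond its spread. Its brighter probe (ILMN_1253966) read 8.80, 8.47, 8.09 and 8.16 in control, 8.73, 8.08, 8.02 and 8.28 in TRAF2LC, 8.89, 8.10, 8.40 and 8.18 in IkBaDN and 7.61, 7.97, 8.24 and 8.24 in double transgenic hearts. Replicate 1 was the highest heart in each of the first 3 genotypes, and the lowest in double transgenic hearts. The change in double transgenic hearts was -0.36 ± 0.21 on the log2 scale (interval -0.81 to 0.08, adjusted p = 0.571), while the dimmer probe gave 0.00 ± 0.16 (adjusted p = 0.998). The dimmer probe was detected on only 1 control and 1 double transgenic array. Its values, 5.10 to 5.85, lay around the detection limits of 5.40 to 5.81, so it could hardly show a fall. In TRAF2LC and IkBaDN hearts the brighter probe changed by -0.10 and 0.01, with adjusted p-values of 0.926 and 0.998.

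At the pyruvate branch, Ldha encodes the A subunit of lactate dehydrogenase, the form that predominates in skeletal muscle, while the B subunit of Ldhb predominates in heart. Ldha read 12.92, 12.69, 12.72 and 12.86 in control, 12.59, 12.43, 12.68 and 12.72 in TRAF2LC, 12.76, 13.04, 12.62 and 12.85 in IkBaDN and 12.84, 12.65, 12.56 and 12.67 in double transgenic hearts. The genotypes overlapped throughout. The Ldha change was -0.19 ± 0.11 in TRAF2LC (adjusted p = 0.594), 0.02 ± 0.11 in IkBaDN (adjusted p = 0.989) and -0.12 ± 0.11 in double transgenic hearts (adjusted p = 0.776).

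Pdk2 and Pdk4 encode kinases that inactivate pyruvate dehydrogenase. Pdk2 means were 8.51 ± 0.22 for control, 8.56 ± 0.26 for TRAF2LC, 8.57 ± 0.32 for IkBaDN and 8.50 ± 0.20 for double transgenic hearts (SD, n = 4), and its adjusted p-values against control lay between 0.964 and 0.990. Pdk4 read 9.52, 10.28, 11.11 and 10.40 in control, 9.55, 10.78, 10.66 and 10.52 in TRAF2LC, 9.80, 10.82, 10.53 and 10.72 in IkBaDN and 10.53, 10.37, 10.31 and 10.93 in double transgenic hearts. Both the highest and the lowest of the 16 hearts were controls, and the genotypes overlapped.

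The genotype means of Pdk4 were nearly level against this spread: 10.33 ± 0.65, 10.38 ± 0.56, 10.47 ± 0.46 and 10.53 ± 0.28 (SD, n = 4) in control, TRAF2LC, IkBaDN and double transgenic hearts. The changes against control were 0.05, 0.14 and 0.21 ± 0.31 on the log2 scale, with adjusted p-values of 0.984, 0.965 and 0.884. The interval in double transgenic hearts, 0.728-fold to 1.83-fold, reached highest among the members in the comparisons with control. The pooled SD of Pdk4 within genotypes was 0.508, larger than that of 98.1% of all probes tested, whose median was 0.227. Hk2 lay at the other end with 0.0999, larger than 3.28% of probes, beside the brightest Pfkm probe with 0.106.

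Whether members varied together between hearts of the same genotype was examined for the 36 pairs of the 9 genes, on deviations from the genotype means over 16 arrays. No pair passed after adjustment over the 36 pairs. Pdk4 and Pfkfb2 came closest, with a Pearson r of -0.784 (permutation p = 0.00347, adjusted p = 0.125) and a Spearman rho of -0.659 (permutation p = 0.0128, adjusted p = 0.460). Without the 2 arrays farthest from the median r was -0.641, and within the first and the last 8 columns of the deposited table it was -0.625 and -0.447. Each of these column sets held 2 arrays of each genotype, so its r rests on only 1 difference per genotype and is a weak check. Replicate 1 of control, TRAF2LC and IkBaDN had the low Pdk4 (9.52 to 9.80) and high Pfkfb2 (8.73 to 8.89) values, and without these 3 hearts r was -0.291 over 13 arrays, so the relation rests on them. Their mean signals, 282 to 302, lay inside the range of the other arrays. All 3 stood in the first 8 columns and in 1 run of label numbers, and the other 3 arrays of that run (control replicate 2, TRAF2LC replicate 4 and IkBaDN replicate 4) had Pdk4 values of 10.28, 10.52 and 10.72. The label numbers are those of the sample descriptions, and what their runs mean is not stated. No double transgenic array stood in that run. For Pdk4 and Pfkfb2, the level and spread of that genotype therefore cannot be fully told apart from the run.

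**Figure D3:**
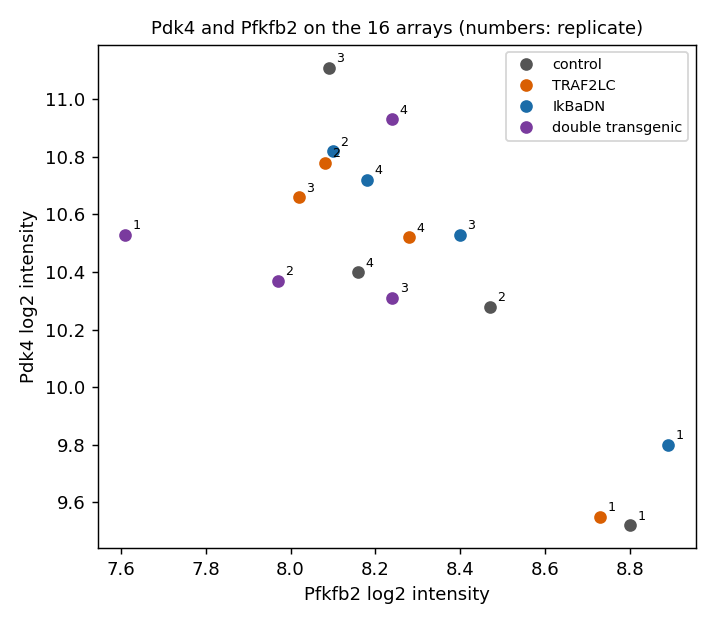
Log2 intensity of Pdk4 (vertical axis) against the brighter Pfkfb2 probe (horizontal axis) on the 16 arrays, coloured by genotype and numbered by replicate. Replicate 1 of control, TRAF2LC and IkBaDN lies apart at the lower right, with Pdk4 at or below 9.80, while the other 13 arrays have Pdk4 of at least 10.28 and Pfkfb2 of at most 8.47.

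The genes whose values followed these members most closely over the 16 arrays were ranked by the root mean square difference of mean-centred log2 values among 6901 other genes. For Pdk4 they were Tmem131l (0.284), Agpat1 (0.285), Eif2s3x (0.298), Tmx1 (0.306) and Fhod3 (0.308), where the values of Pdk4 themselves had a root mean square of 0.447. Those closest to Pfkfb2 were Phactr4 (0.196), Sbk1 (0.200), Nipsnap1 (0.202), Kat6b (0.207) and Mtss1 (0.207), against 0.320 for Pfkfb2 itself. For each of these 10 genes the remaining difference was a large part of the member's own variation. Replicate 1 of control, TRAF2LC and IkBaDN gave the lowest values of Tmem131l (6.55, 6.52 and 6.47), Agpat1, Tmx1 and Fhod3. The same hearts gave the highest values of Nipsnap1 (5.94, 6.08 and 5.97) and Mtss1. Nipsnap1 (5.22 to 6.08) and Fhod3 (4.74 to 6.01) lay around the detection limits of the arrays, 5.40 to 5.81, as did the lowest values of Mtss1. Eif2s3x, Phactr4, Sbk1 and Kat6b did not set these hearts fully apart. The ranking without them was not tested.

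The wider pathway was described with 6 lists that include the members: glucose transporters, upper glycolysis, lower glycolysis, lactate and monocarboxylate transport, pyruvate dehydrogenase and glycogen. Of 84 genes listed, 70 had a probe and 40 were detected. In TRAF2LC against control hearts 0 of 40 rose and 1 fell, against 0.741% and 0.296% of all probes. In the other 5 comparisons 0 of 40 were called. The share of all probes tested was 0.444% in IkBaDN and 0.91% in double transgenic against control hearts. It was 2.97% in double transgenic against TRAF2LC hearts, 0.0106% against IkBaDN hearts and 0.0212% in the interaction. The median change of the 40 genes against control was -0.03 for TRAF2LC, -0.06 for IkBaDN and -0.03 for double transgenic hearts, beside -0.01, -0.01 and 0.00 for all probes tested. In the list around pyruvate dehydrogenase, which holds Pdk2 and Pdk4, 4 of 9 genes had a lower mean than in control for TRAF2LC, 6 for IkBaDN and 7 for double transgenic hearts, beside 52.4%, 52.3% and 49.7% of all probes. The median change in double transgenic hearts was -0.02, and it ran from -0.14 (without double transgenic replicate 3) to 0.00 (without replicate 1) when 1 array was left out. In TRAF2LC hearts the median was 0.02 and ran from -0.11 to 0.07 in the same way. Without TRAF2LC replicate 4 it was -0.08, with 6 of 9 genes lower.

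The gene that fell was Phkg1, the muscle catalytic subunit of phosphorylase kinase, which starts glycogen breakdown. Phkg1 read 7.35, 7.28, 7.22 and 7.22 in control and 6.65, 6.35, 6.97 and 6.25 in TRAF2LC hearts, with no overlap. The change was -0.71 ± 0.16 on the log2 scale, with an adjusted p of 0.0368. This call was lost in 13 of the 25 alternative settings, among them the removal of any 1 control heart and of TRAF2LC replicate 1, 2 or 4, with adjusted p-values up to 0.492. The change kept its sign in 25 of 25 settings, at -0.85 to -0.57. In IkBaDN hearts Phkg1 read 6.97, 7.28, 7.17 and 6.87, and in double transgenic hearts 7.11, 7.01, 6.69 and 6.60, neither of them called against control.

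Of the other genes with the smallest p-value of their list in a comparison, none passed. Fbp2, the muscle fructose bisphosphatase that opposes phosphofructokinase, read 7.87, 8.25, 8.34 and 8.16 in control and 7.89, 7.51, 7.45 and 6.95 in TRAF2LC hearts, a change of -0.70 ± 0.17 (adjusted p = 0.0792). Pdp2, a phosphatase that reactivates pyruvate dehydrogenase and so opposes Pdk2 and Pdk4, read 11.23, 11.07, 10.81 and 11.12 in control, 10.83, 10.45, 10.42 and 10.16 in TRAF2LC and 10.89, 10.45, 10.12 and 10.68 in double transgenic hearts. Its changes were -0.59 (adjusted p = 0.131) and -0.52 (adjusted p = 0.204). For Fbp2 and Pdp2 the lowest TRAF2LC value was that of replicate 4, without which the changes were -0.53 (adjusted p = 0.271) and -0.49 (adjusted p = 0.448).

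In lower glycolysis Pgam1, a phosphoglycerate mutase, was 0.33 above control in TRAF2LC hearts (adjusted p = 0.545). The muscle enolase Eno3 differed by 0.22 in double transgenic against control hearts (adjusted p = 0.443) and by 0.30 against TRAF2LC hearts (adjusted p = 0.122). Pfkfb4, another bifunctional enzyme of the Pfkfb2 family, differed by -0.37 between double transgenic and TRAF2LC hearts (adjusted p = 0.128). The gene of liver-type glycogen phosphorylase, Pygl, read 0.54 above control in IkBaDN hearts (adjusted p = 0.156). None of these changes can be told from the spread between hearts at the threshold used.

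Upstream of the members, a list of regulators of glucose use held 25 genes with a probe, 14 of them detected, among them insulin and PPAR signalling components. In TRAF2LC against control hearts 0 of 14 were called, against 1.04% of all probes. Of the 14, 12 had a lower mean, beside 52.4% of all probes, and the median change was -0.13, beside -0.01 over all probes. Between double transgenic and TRAF2LC hearts 0 of 14 were called, against 2.97% of all probes. All 14 had a higher mean, where 47.7% of all probes were lower, and the median was 0.32, beside 0.01 over all probes. Both comparisons use the TRAF2LC hearts, whose list medians against the control mean were -0.08, -0.16, -0.07 and -0.40. Replicate 4 supplied the lowest of these, and without it the medians were -0.11 and 0.20. Double transgenic hearts also stood above control, with 2 of 14 lower, beside 49.7% of all probes, and a median of 0.16. That median ran from 0.10 to 0.21 when 1 array was left out. In IkBaDN against control hearts 5 of 14 were lower, beside 52.3% of all probes, with a median of 0.09. Irs2, an insulin receptor substrate, had the smallest p-value in TRAF2LC hearts (log2 -0.53, adjusted p = 0.491), and without replicate 4 its change was -0.23 (adjusted p = 0.968). Ppargc1b, a coactivator of mitochondrial and fatty acid genes, had it in double transgenic against TRAF2LC hearts (0.47, adjusted p = 0.0544).

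PPAR target genes were set beside Pdk4, itself a known target of these receptors, and 13 of 17 were detected. In TRAF2LC against control hearts 1 of 13 fell, against 0.296% of all probes, namely Acot1, a cytosolic acyl-CoA thioesterase, which read 9.22, 9.53, 9.78 and 9.42 in control and 8.36, 8.81, 8.62 and 7.62 in TRAF2LC hearts. Its change was -1.14 ± 0.20 on the log2 scale with an adjusted p of 0.00853. This call was made in 24 of 25 alternative settings and lost with only those 2 genotypes in the fit (adjusted p = 0.0930). Between double transgenic and TRAF2LC hearts 1 of 13 rose, against 1.38% of all probes tested. It was again Acot1, by 0.79 ± 0.20 (adjusted p = 0.0426), a call made in 9 of 25 alternative settings. Pdk4 itself differed by 0.05 and 0.16 in these comparisons, with adjusted p-values of 0.984 and 0.878. The median change of the list in TRAF2LC hearts was -0.17, and -0.04 without replicate 4.

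**Figure D4:**
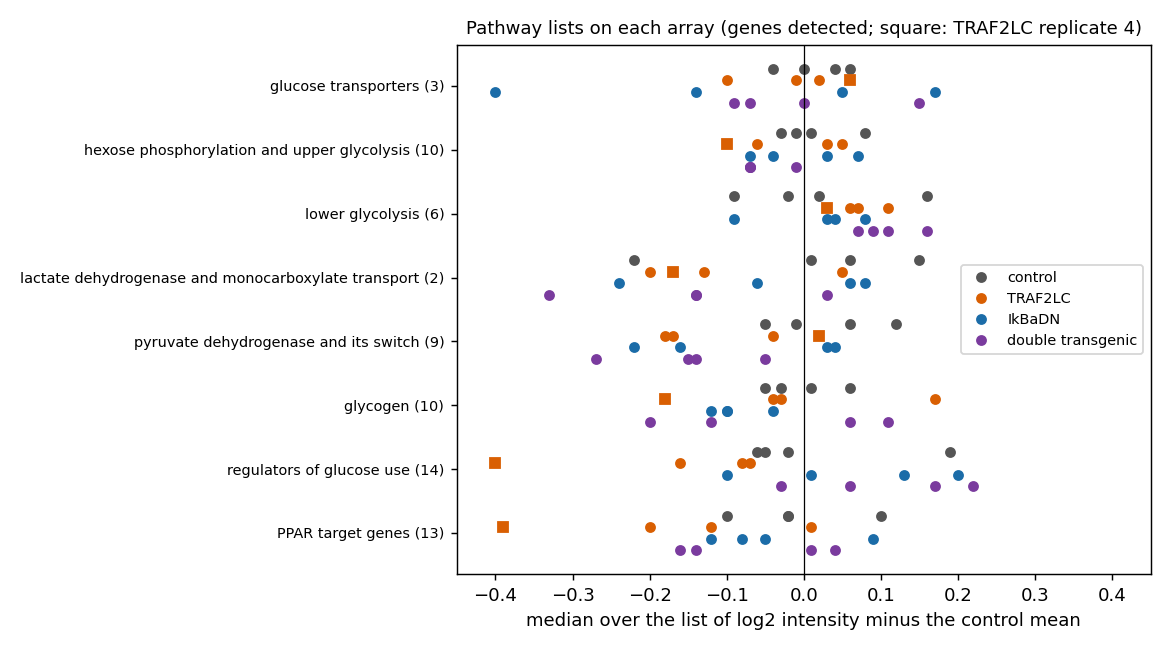
Median over each list of the log2 intensity minus the control mean on every array (points, coloured by genotype), with the number of detected genes of each list in brackets and TRAF2LC replicate 4 as a square. Regulators and PPAR target genes are lowest on that array, at -0.40 and -0.39, and in the list with Pdk2 and Pdk4 the arrays lie between -0.05 and 0.12 in control, -0.18 and 0.02 in TRAF2LC, -0.22 and 0.04 in IkBaDN and -0.27 and -0.05 in double transgenic hearts.

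Double transgenic hearts were also compared with each single transgenic genotype. In double transgenic against TRAF2LC hearts the changes of the 12 probes ran from -0.26 (Pfkfb2) to 0.20 (Slc2a4), with a median of -0.02 beside 0.01 for all probes. Against IkBaDN hearts they ran from -0.38 (Pfkfb2) to 0.11 (Slc2a4), with a median of -0.06 beside 0.01. The smallest adjusted p-values were 0.554 and 0.866, and no interaction of a member other than Slc2a4 had an unadjusted p under 0.05. Groups without overlap were seen for 0 of 12 member probes in both comparisons, against 9.98% and 2.92% of all probes tested.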

How the data were processed

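RNA of 16 left ventricles, 4 per genotype in the labels, had been hybridized to 1 array each. The deposited table gives an intensity per probe and array, from which the authors had subtracted background (14378 probes lie below 0 on at least 1 array), and a detection p-value deposited beside each. In the deposited series matrix these intensities are multiplied by 1 factor per array. BeadStudio and GenomeStudio are named, with no steps, per the submitters' processing notes.

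Intensities were corrected with limma 3.58.1 (nec from detection p-values, offset 16), quantile normalized and log2 transformed. The 9449 probes detected at p under 0.01 on 4 or more arrays, for 6902 genes, entered 1 limma fit of 4 genotype means (12 residual and 4.64 prior degrees of freedom). Tests were two-sided, and the script was tested on simulated data. Array number limits precision, and folds refer to the array scale, on which no probe's level was set against another's. Genes are given by their brightest probe, and list genes are named where called or of smallest p in a comparison. Correlations used 100000 permutations within genotypes. The members and lists were chosen with earlier results of these data known. Alternatives were other backgrounds, scalings, filters, blocks and samples, and leaving out each array.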

Additional observations from a re-analysis of the deposited data

Results flagged for a closer look

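Slc2a4 differed in the direction of the IkBa transgene effect with and without the TRAF2 transgene. The effect was -0.23 on the log2 scale in mice without the TRAF2 transgene (IkBaDN against control) and 0.20 in mice with it (double transgenic against TRAF2LC). It was picked out by its interaction, which had an unadjusted p of 0.0396 and an adjusted p of 0.777 in limma, so it fails the correction. Without TRAF2LC replicate 4, the heart with the lowest Slc2a4 value, the effect with the TRAF2 transgene was 0.10 (adjusted p = 0.829) and the interaction 0.33. Of the 48 sets of 4 hearts (12 probes by 4 genotypes), 0 held a heart standing apart by Dixon's ratio (critical value 0.829), which chance gives in about 1 of 20 sets.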

How the results depend on the processing

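Member probes called were 0 in all 6 comparisons and in all 1782 refits of a member under an alternative, with a lowest adjusted p of 0.0753 (brightest Pfkm probe, double transgenic against control, first and last 8 columns as a block). Of 72 member changes, 42 changed sign under at least 1 alternative, while that Pfkm probe stayed below control in all 25 in each comparison with control. The counts over all probes moved more, and unless stated the cause was not tested. For TRAF2LC against control, with 98 called, they were 38 without background correction, 51 with the authors' scaled values, 54 with no filter, 60 with probes detected on 16 arrays and 35 with only the genotypes compared (fewer samples). IkBaDN against control, with 42, gave 18 under median scaling, 24 with the authors' values and 24 with only the genotypes compared. Double transgenic against control, with 86, gave 26 under median scaling. Double transgenic against TRAF2LC, with 281, gave 120 under median scaling and 155 with only the genotypes compared. Double transgenic against IkBaDN, with 1, gave 3 under median scaling, 2 with only the genotypes compared and 0 with probes detected on 16 arrays. The interaction, with 2, gave 4 under median scaling and 5 with the column block, and it cannot be fitted with only the genotypes compared. With the replicate number as a block the counts were 116, 47, 85, 320, 1 and 4 in the same order, and 0 members. Deviations of same-numbered arrays of different genotypes correlated between -0.294 and 0.406 (median 0.252; 16 of 24 pairs over 0.1), and 9 of 16 arrays correlated best, on average, with their own number. Since not every pair was over 0.1, the numbers were not taken to pair hearts, but this rule does not exclude variation shared by replicate number. All arrays numbered 1 stood in the first 8 columns and all numbered 3 in the last 8. Leaving out 1 array at a time gave ranges of 40 to 99, 21 to 45, 42 to 93, 184 to 305, 1 to 4 and 2 to 11. Median scaling moved the median of all probes to 0.13, -0.23 and 0.11 in TRAF2LC, IkBaDN and double transgenic against control, relative to which the member medians were -0.11, -0.01 and -0.13. The calls in TRAF2LC against control were 70 higher of 98, against 67 of 70 under median scaling and 45 of 51 with the authors' values. In IkBaDN they were 24 of 42 against 7 of 18 under median scaling, in double transgenic against control 48 of 86 against 19 of 26 and, with the authors' values, 48 of 69, and in double transgenic against TRAF2LC 130 of 281 against 35 of 120 under median scaling.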
